A study of Caenorhabditis elegans with 2 samples.

Results

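The 6 genes described here encode the HSP90 chaperone, 3 of its cochaperones, the HSP90 of the endoplasmic reticulum and the mitochondrial chaperonin of Caenorhabditis elegans. They are hsp-90, daf-41, cdc-37, sti-1, enpl-1 and hsp-60, out of 19973 protein-coding genes of the WBcel235 annotation. The data were chromatin immunoprecipitation sequencing (ChIP-seq) peaks of ZTF-1, a zinc finger protein, tagged with eGFP and recovered with an antibody against GFP. All samples were whole L2 larvae of strain OP207, aged 28.5 hours after a synchronisation in which bleached embryos hatched and starved as L1 larvae. The strain carries wgIs207, an inserted fosmid copy of ztf-1 fused to 2XTY1-eGFP-3XFLAG with unc-119 in the same construct, so the tagged protein came from a transgene and not from the endogenous gene. There was 1 group of 2 biological replicates and no second condition, so no comparison between conditions was possible and no test was made. Signal from few cells and weak signal from many cells cannot be told apart in whole larvae, and a peak list holds no marker level with which to check the cells.

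The members were picked by name with earlier results of these peaks known, and every deposited peak with its summit from 2 kb upstream of a gene's start to 2 kb downstream of its end was taken. The signals and reproducibility values below were therefore selected on these same data and are given as a description. Each entry of a peak list carries a signal, a measure of enrichment that the authors deposited without a unit. Lists come as ranked (all entries) and thresholded. A thresholded list held exactly the ranked entries with an irreproducible discovery rate (IDR) of 0.01 or less. A low IDR means that the peak stood high in the order of both of the 2 inputs compared, and not only at like ranks. The replicate-compared ranked list held 87133 entries and the thresholded one 238, which merged into 214 peaks. The median signal was 97.0 over thresholded entries and 23.2 over ranked ones. Each replicate-compared entry also gives the signal of its first and its second paired input. Where these inputs could be traced, the first was replicate 1 and the second replicate 2.

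HSP90 is an abundant ATP-driven chaperone of the cytosol that completes the folding of kinases, hormone receptors and other clients. Its cochaperones steer the cycle: STI-1 (the HOP homologue) connects HSP70 to HSP90, CDC-37 brings in kinase clients and DAF-41 (the p23 homologue) binds the closed, ATP-bound form. ENPL-1 is the GRP94-type HSP90 of the endoplasmic reticulum, and HSP-60 forms the folding chamber of the mitochondrial matrix, which a small co-chaperonin caps. Many chaperone genes are induced by heat shock factor, which binds alternating units of the bases GAA and TTC, 2 bases apart.

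Of the 6 genes, hsp-90 and hsp-60 had a thresholded summit. The 2 regions are shown because they held the summits with the highest signals at these genes. Both are plus-strand sequence of WBcel235, 5′ to 3′, from 100 bp before to 100 bp after the summit, and capitals mark matches to GAANNTTC or TTCNNGAA. The hsp-90 region is chrV:14685642-14685842 and lies in the first intron of the longer hsp-90 transcript. The hsp-60 region is chrIII:1619016-1619216 and lies between hsp-60 and Y22D7AL.10, outside annotated genes.
hsp-90: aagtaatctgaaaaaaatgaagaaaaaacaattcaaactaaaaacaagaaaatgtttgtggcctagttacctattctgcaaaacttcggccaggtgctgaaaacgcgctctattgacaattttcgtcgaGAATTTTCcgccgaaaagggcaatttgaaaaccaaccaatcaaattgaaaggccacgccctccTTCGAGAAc
hsp-60: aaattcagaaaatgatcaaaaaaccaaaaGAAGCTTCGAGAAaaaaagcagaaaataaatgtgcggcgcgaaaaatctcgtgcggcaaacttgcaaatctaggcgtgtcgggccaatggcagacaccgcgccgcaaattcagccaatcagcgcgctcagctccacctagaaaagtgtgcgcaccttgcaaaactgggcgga
The hsp-90 region had a GC content of 38.8% and the hsp-60 region of 48.3%. The median over the same length was 44.8% at thresholded peaks, with quartiles of 39.8% and 49.8%. At all ranked entries it was 38.3%, with quartiles of 33.8% and 43.3%.

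The capitals stand in different arrangements. At hsp-90 the 2 matches were apart, with GAANNTTC starting 29 bp and TTCNNGAA 92 bp past the summit. At hsp-60 they overlapped into a run of 3 alternating units, the first of which began 71 bp before the summit, and the run lay 116 bp upstream of the start of Y22D7AL.10 and 685 bp upstream of hsp-60. Both motifs read the same on either strand. In windows of 201 bp, GAANNTTC was in 11.7% of thresholded peaks and 13.1% of all ranked regions, and TTCNNGAA in 10.3% of thresholded peaks and 12.9% of ranked regions. A run of 3 such units, a search chosen after the sequences had been seen, was in 1.40% of thresholded peaks and 1.17% of ranked regions. Searched on both strands, the GC-rich word AGCGCG matched once at hsp-90, 3 bp past the summit, and at 2 overlapping places at hsp-60, 48 and 50 bp past the summit. CCGCGC matched at hsp-60, 25 bp past the summit, and CGCGCA matched in neither region. AGCGCG was in 11.2% of thresholded peaks and 2.56% of ranked regions, and CCGCGC in 10.7% of thresholded peaks and 2.94% of ranked regions. CGCGCA was in 12.6% of thresholded peaks and 3.26% of ranked regions. How these GC-rich words were chosen is not given here, so nothing is read from the differences in their shares. Thresholded peaks also had the higher median GC content, 44.8% against 38.3% at ranked entries. Around the strongest summit of the other 4 genes, the single match to any of these 5 words was GAANNTTC at cdc-37, 92 bp before the summit. A match is a description of the letters and not a binding site.

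The 6 windows held 57 of the 87133 ranked entries. There were 13 entries at hsp-90, 13 at hsp-60, 9 at each of cdc-37, sti-1 and enpl-1, and 4 at daf-41. Of the 57, 2 had an IDR of 0.01 or less, 2 had one between 0.01 and 0.05, and 53 had one above 0.05. The median signal was 30.4 at the 57 entries, against 23.2 over all ranked entries. Over the 6 genes the median of the strongest signal was 80.8, against 46.2 over the 19259 protein-coding genes with a ranked summit in the same window. The median number of ranked entries per kb of window was 1.31 at the 6 genes and 0.917 at all genes.

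**Figure D1:**
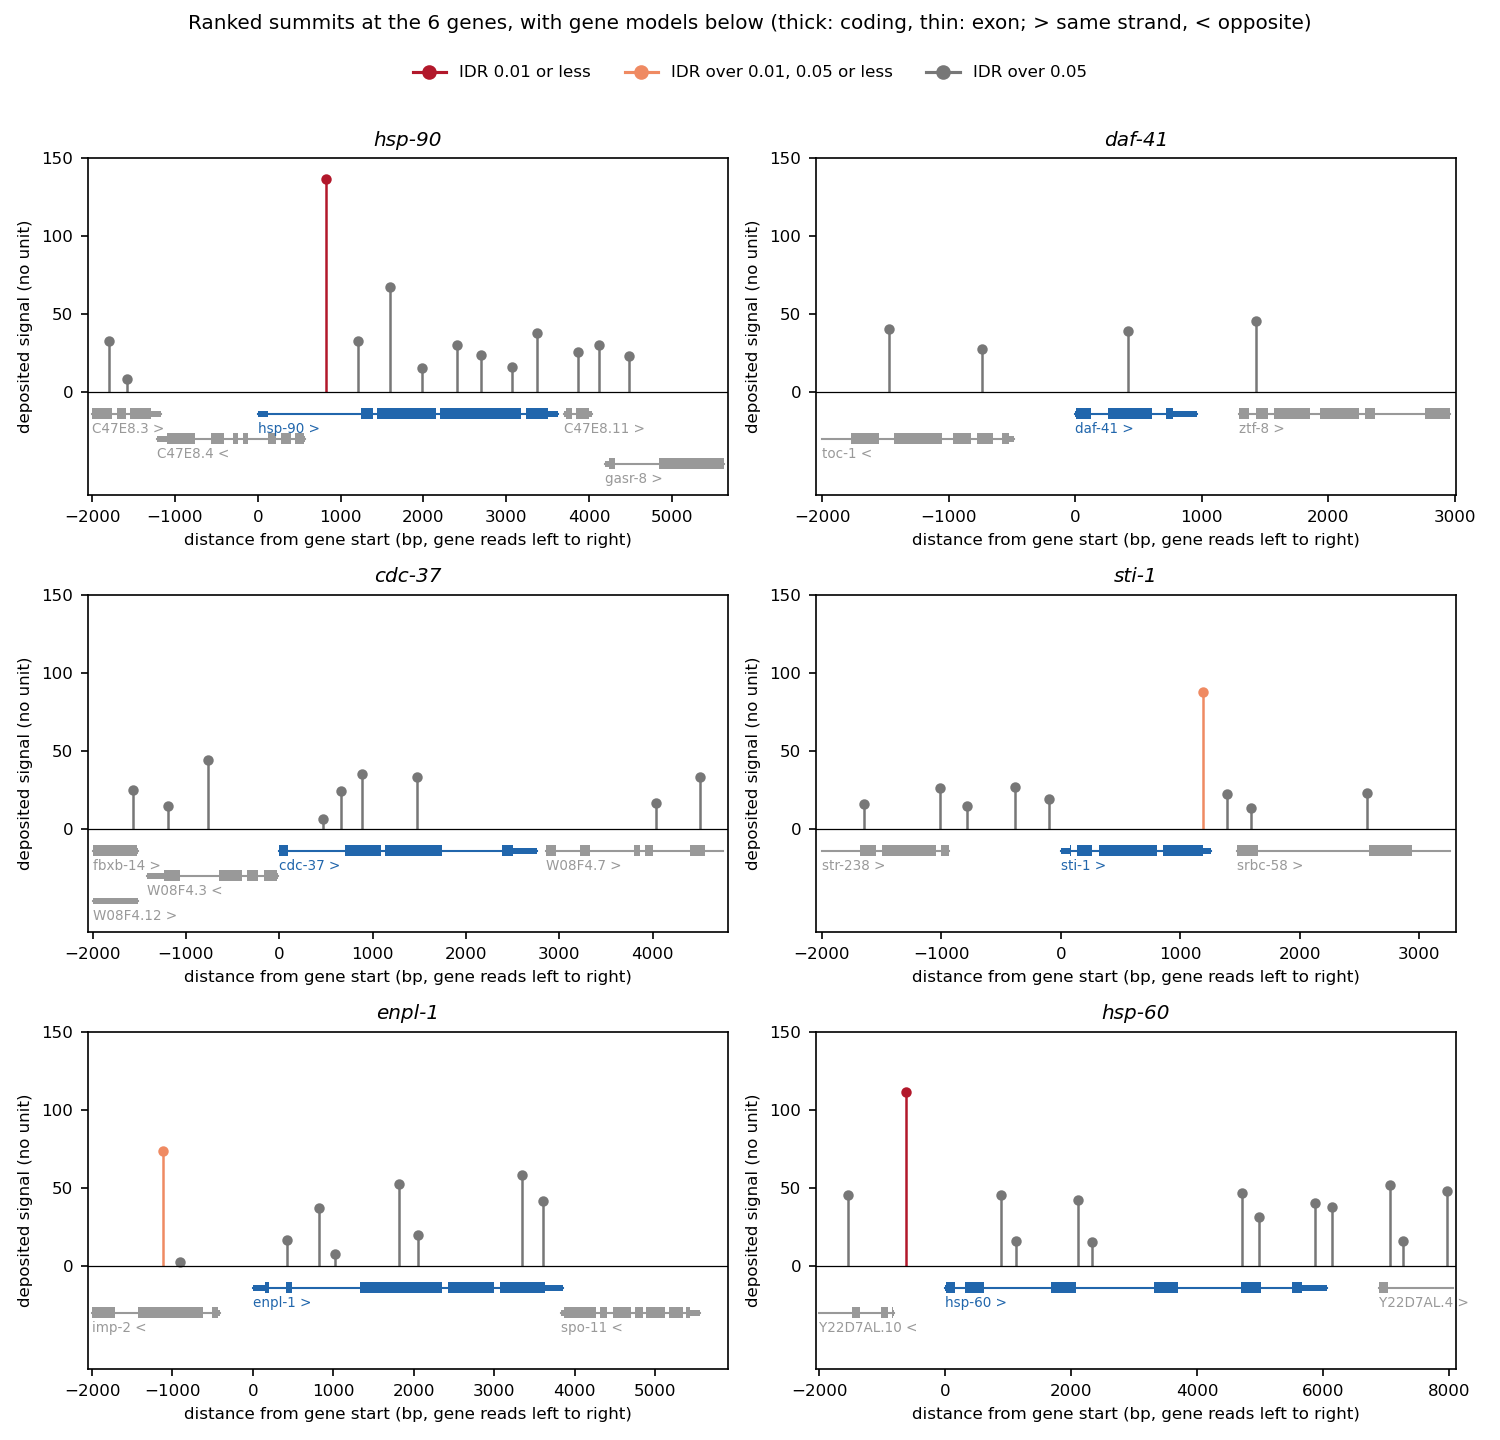
Deposited signal (vertical axis, no unit) of each ranked summit against its distance from the gene's start in bp (horizontal axis), with protein-coding gene models under each panel and colours for the IDR class. The 2 summits at IDR 0.01 or less are at hsp-90, signal 136.82, and hsp-60, signal 111.44. The strongest summits of daf-41, cdc-37 and enpl-1 fall over neighbouring genes.

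The highest signal among these genes was at hsp-90, the gene of cytosolic HSP90 (V:14684918-14688545, plus strand). Its strongest entry spanned chrV:14685472-14686011 with a signal of 136.82, rank 21 of 87133, and an IDR of 0.000340. The paired signals were 84.14 in replicate 1 and 54.97 in replicate 2. These were ranks 12 and 59 of the entries by each input's signal, so both replicates held the region among their strongest, with their own summits 5 bp apart. The deposited q-value was 0.0189. The same interval was in the pooled thresholded list, with an IDR of 0.000632. In replicate 1's own lists it was thresholded, with an IDR of 0.00680. In replicate 2's own ranked list it had rank 61, an IDR of 0.0289 and a q-value of 0.0413, and it was not thresholded there. Of the 6 genes, hsp-90 was the one with a summit in 3 of the 4 thresholded lists.

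Which start the hsp-90 summit belongs to cannot be told from its position. It lay 824 bp past the start of the longer transcript, inside its first intron, and 418 bp upstream of the shorter transcript. The nearest start was that of C47E8.4, on the minus strand, 257 bp away, whose RefSeq product is a sigma receptor-like protein. C47E8.4 and the shorter hsp-90 transcript face away from each other across 674 bp, and the summit was between them. The second strongest hsp-90 entry, with a signal of 67.43 and an IDR of 0.183, was in a coding exon 1595 bp past the gene's start. Here replicate 2 was the higher, with 20.73 in replicate 1 and 42.03 in replicate 2. Along the coding exons the replicates differed further. The entry 2402 bp past the start had 38.07 in replicate 1 and 4.86 in replicate 2, with paired summits 1 bp apart. Its replicate 2 interval was also paired with the entry at 2698 bp. The entry at 3368 bp had 9.49 in replicate 1 and 29.29 in replicate 2, with paired summits 12 bp apart. Its replicate 2 interval was also paired with the entry at 3064 bp, whose own paired summits were 499 bp apart, so the value of 29.29 is not a measurement at that place. Apart from the strongest and the second strongest, the entries at hsp-90 had signals from 8.64 to 37.67.

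The cochaperone genes had no thresholded summit in any of the 4 thresholded lists. At daf-41, for the p23 cochaperone (III:5273805-5274765, minus strand), the 4 ranked entries had signals of 45.3, 40.71, 38.93 and 27.65. The strongest was in a coding exon of the neighbour ztf-8, 467 bp past the end of daf-41, with 20.6 in replicate 1 and 24.15 in replicate 2 and an IDR of 0.302. The single entry inside daf-41, in a coding exon 416 bp past the start, had a signal of 38.93, with 15.32 in replicate 1 and 19.33 in replicate 2. Its replicate 1 interval was not found in replicate 1's own ranked list. The strongest signal at daf-41 was close to the median of 46.2 over all genes.

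At cdc-37, for the kinase cochaperone (II:577837-580593, minus strand), the 9 entries had signals from 6.43 to 44.2. The strongest was 763 bp upstream of the gene, in an intron of the divergent W08F4.3, with 12.1 in replicate 1 and 32.02 in replicate 2 and an IDR of 0.474. Inside cdc-37 the highest signal was 35.08, in a coding exon. All 4 entries inside the gene carried the same replicate 1 interval, with a signal of 14.21, so they are not 4 separate measurements in that replicate. That interval was not found in replicate 1's own ranked list.

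At sti-1, for the adaptor between HSP70 and HSP90 (V:773518-774775, plus strand), the strongest entry had a signal of 87.63, rank 272, and an IDR of 0.0284. It was at the end of the gene and not at its start. The summit was in the last coding exon, 68 bp before the gene's end and 1189 bp past its start. It was also 288 bp upstream of srbc-58, a gene of a chemoreceptor family. In each replicate's own ranked list the summit of this region was in the 3′ UTR of sti-1 instead. The paired signals were 31.56 in replicate 1 and 54.4 in replicate 2, ranks 6412 and 67 of the entries. The replicates thus placed this region differently. In replicate 2's own list its q-value was 0.0365 and its IDR 0.0576, and in replicate 1's own list its IDR was 0.736. Near the start of sti-1 the entries were low, with signals of 26.77 at 384 bp and 19.34 at 97 bp upstream. Of the members' strongest summits ordered by IDR, hsp-60 at 0.00299 was the last inside the threshold of 0.01. The next in that order, sti-1 at 0.0284, was outside it.

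At enpl-1, for the HSP90 of the endoplasmic reticulum (IV:11119298-11123155, plus strand), the strongest entry had a signal of 74.04, rank 914, and an IDR of 0.0389. Its summit was in a coding exon of the divergent imp-2, which encodes an intramembrane protease, 1122 bp upstream of enpl-1. The paired signals were 44.07 in replicate 1 and 30.73 in replicate 2. The neighbouring entry, with a signal of 2.84, carried the same replicate 2 value of 30.73, since both were paired with the same interval. Within enpl-1 the 2 highest entries were in coding exons. The entry with a signal of 58.63 had 24.94 in replicate 1 and 34.12 in replicate 2, with an IDR of 0.148. The entry with a signal of 52.75 had 26.57 in replicate 1 and 23.89 in replicate 2, with an IDR of 0.221. In both the replicates were closer to each other than at sti-1, at signals below the thresholded median of 97.0.

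At hsp-60, for the mitochondrial chaperonin (III:1619742-1625803, plus strand), the strongest entry spanned chrIII:1618846-1619385. It had a signal of 111.44, rank 61 of 87133, and an IDR of 0.00299. The paired signals were 47.68 in replicate 1 and 54.55 in replicate 2, with summits 22 bp apart. These were ranks 623 and 66 of the entries, so replicate 1 held the region further down its order. The deposited q-value was 0.0909, above 0.05. In the pooled comparison its IDR was 0.0110, just over the threshold of 0.01, so the pooled thresholded list did not hold it. In the replicates' own lists the IDR was 0.677 for replicate 1 and 0.256 for replicate 2. Of the 4 thresholded lists, the replicate-compared list alone held the hsp-60 peak.

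The hsp-60 summit lay between 2 genes of the same chaperonin. Y22D7AL.10, whose RefSeq product is the mitochondrial co-chaperonin that caps the HSP-60 ring, is read in the opposite direction, and the starts of the pair were separated by 812 bp. The summit was 187 bp upstream of Y22D7AL.10 and 626 bp upstream of hsp-60. The start nearest to it was thus that of Y22D7AL.10. The other 12 entries at hsp-60 had signals from 15.63 to 51.69, the highest of them in an intron of the downstream Y22D7AL.4. Inside hsp-60 the highest was 47.07, in a coding exon, with 33.21 in replicate 1 and 14.31 in replicate 2.

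The paired signals of the 57 entries show how far the replicates shared these values. Replicate 1 was higher at 32 entries and replicate 2 at 25, and the median absolute log2 ratio between them was 0.870, against 0.756 over all ranked entries. Spearman's rho between the paired signals was -0.12 over the 57 entries and Pearson's r of their log2 values -0.03, against a rho of 0.19 over all 87133 entries. These are descriptions over regions that share 2 libraries and, in part, intervals: 38 of the 57 entries shared a paired interval with another entry, and 43 different intervals of replicate 1 and 45 of replicate 2 stood behind them. The paired interval was found in replicate 1's own ranked list for 34 entries, in replicate 2's for 43, and in both for 30. At the 4 entries with an IDR of 0.05 or less, both paired signals were above 30.

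**Figure D2:**
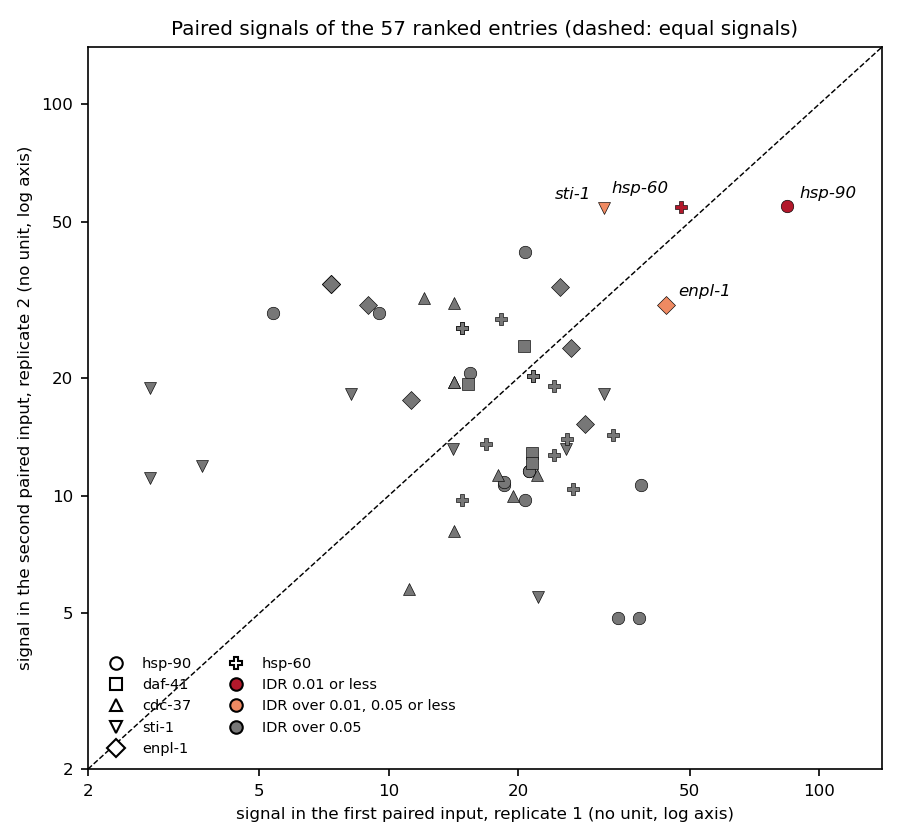
Signal of each of the 57 ranked entries in the first paired input, replicate 1 (horizontal axis), against the second, replicate 2 (vertical axis), both without unit on log axes, with a shape per gene and colours for the IDR class. The 4 labelled entries, at IDR 0.05 or less, stand at the upper right, and the other 53 scatter on both sides of the dashed line of equal signals.

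By position, 28 of the 57 summits were inside their gene: 17 in a coding exon, 10 in an intron and 1 in a 3′ UTR. Another 22 were in a different gene alone and 7 were intergenic. Distances to starts were counted here with only the outermost start of each protein-coding gene. On that count the gene's own start was the nearest for 20 of the 57, and 19 summits were within 500 bp of a start. Starts of shorter transcripts were left out of both counts, though some summits lay near one. The hsp-90 entry 1207 bp past the gene's start, for example, was 35 bp upstream of the shorter transcript. In none of the 4 entries at IDR 0.05 or less was the nearest start that of the gene named for it: it was C47E8.4 for hsp-90, Y22D7AL.10 for hsp-60, srbc-58 for sti-1 and imp-2 for enpl-1.

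Counted by gene, 2 of the 6 had a summit of the replicate-compared thresholded list, hsp-90 and hsp-60, and 1.64% of all protein-coding genes did. In the pooled thresholded list it was 1 of 6, hsp-90, and 1.23% of all genes. Replicate 1's own thresholded list held 1 of 6, again hsp-90, with 0.165% of all genes, and replicate 2's held 0 of 6, with 0.165% of all genes. At an IDR of 0.05 or less in the replicate-compared ranked list it was 4 of 6, which added sti-1 and enpl-1, and 6.80% of all genes. The rule that chose the genes used these lists, so nothing is read from the difference to the background.

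The strongest signal put hsp-90 at the 99.8th percentile of genes, hsp-60 at the 99.4th, sti-1 at the 97.9th, enpl-1 at the 93.3rd, daf-41 at the 47.6th and cdc-37 at the 44.6th. In replicate 1's own list the percentiles were 99.8 for hsp-90, 94.1 for hsp-60, 90 for enpl-1, 56.4 for sti-1, 26.5 for daf-41 and 19.5 for cdc-37. In replicate 2's own list they were 99.3 for hsp-90, 99.2 for hsp-60, 99.2 for sti-1, 84.5 for enpl-1, 77.4 for cdc-37 and 43.9 for daf-41. The place of hsp-90 at the top was shared by both replicates. The percentiles of sti-1, cdc-37, daf-41 and hsp-60 were higher in replicate 2 and that of enpl-1 was higher in replicate 1. For enpl-1, cdc-37 and daf-41 the strongest entry was at a different place in each replicate's own list. At enpl-1 it was in a coding exon of imp-2 in replicate 1 and in an intron of enpl-1 in replicate 2. The percentiles of these genes therefore do not compare the same region between replicates. In the order of the replicate-compared percentiles, neighbours differed by less than the gap between the replicates' own percentiles for at least 1 gene of the pair, except enpl-1 and daf-41, which stood at 93.3 and 47.6.

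**Figure D3:**
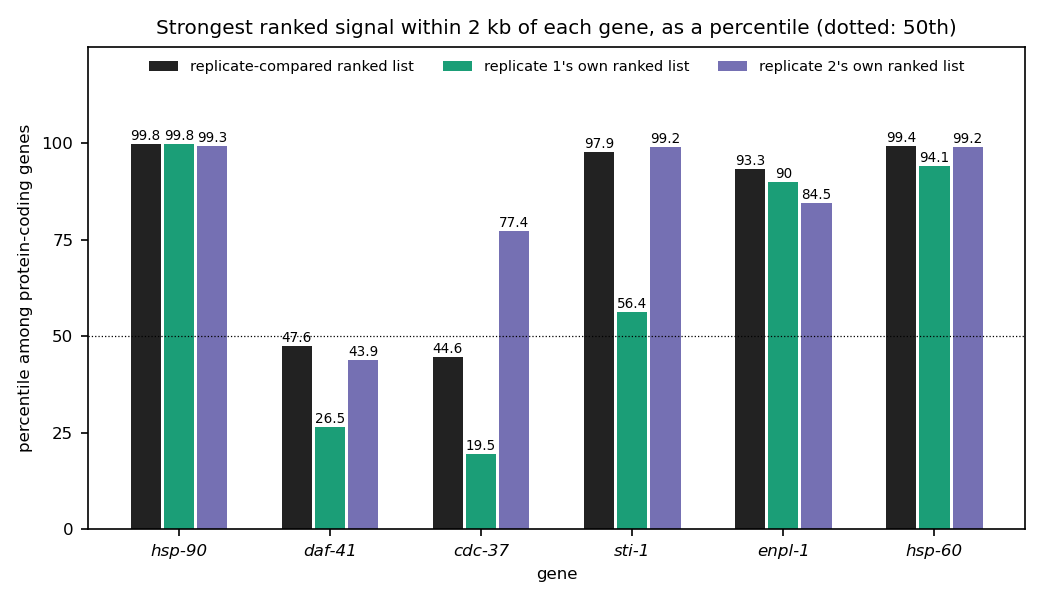
Percentile of each gene's strongest ranked signal among protein-coding genes with a ranked summit (vertical axis, 0 to 100) by gene, as bars for the replicate-compared ranked list and for each replicate's own. The bars of hsp-90 are at 99.3 or above in every list shown, while sti-1 is at 56.4 in replicate 1 and 99.2 in replicate 2.

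Other genes of the chaperone network were taken from 6 lists, of which 74 of 75 names matched the annotation and 73 had a ranked summit. Of these genes, 3 had a summit of the replicate-compared thresholded list and 9 had one at an IDR of 0.05 or less, beside 1.64% and 6.80% of all genes. The median of their strongest signal was 48.6, against 46.2 over all genes. The closest in function were 12 other HSP90 paralogs and cochaperones, with 0 thresholded and a median of 53.2. Of these, hip-1, for an HSP70-interacting cochaperone, missed the threshold narrowly. Its signal was 89.35, with 45.17 in replicate 1 and 42.43 in replicate 2, and its −log10 IDR was 1.9994 where an IDR of 0.01 is 2. That summit overlapped both an intron of hip-1 and a coding exon of T12D8.9. The myosin chaperone gene unc-45, an HSP90 partner, had a signal of 72.3 in a coding exon, with 50.34 in replicate 1 and 27.51 in replicate 2 and an IDR of 0.0402.

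Among 14 genes of prefoldin and of the cytosolic chaperonin, the counterpart of HSP-60 outside mitochondria, 2 were thresholded and the median was 45.6. The subunit gene cct-8 had the highest signal of the 6 lists, 158.03, with 80.55 in replicate 1 and 72.33 in replicate 2 and an IDR of 0.000200, at an intergenic summit 445 bp upstream of the gene. At cct-7 the signal was 122.36, with 86.29 in replicate 1 and 33.49 in replicate 2, but the summit was in the 3′ UTR of the neighbour zig-11. The next 2 subunit genes were cct-4, with a signal of 82.96 and an IDR of 0.163, and cct-5, with 71.71 and 0.112. The cct-5 summit was in other genes, in the 5′ UTR of atf-7 and a coding exon of C07G2.5. The remaining chaperonin and prefoldin genes were lower, down to 20.9.

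Among 14 genes of mitochondrial chaperones, proteases and stress response, 1 was thresholded, Y22D7AL.10, through the same peak as hsp-60, and the median was 55.3. The regulator of the mitochondrial unfolded protein response, atfs-1, had a signal of 76.38 at an IDR of 0.0645. The gene hsp-6, for the mitochondrial HSP70, had 71.88 at 0.204, at an intergenic summit. Among 16 genes of folding and stress response in the endoplasmic reticulum, where ENPL-1 works, 0 were thresholded and the median was 52.6. The highest were crt-1, for calreticulin, with a signal of 78.25 at an IDR of 0.0346, and pdi-1, for a protein disulfide isomerase, with 63.39 at 0.196.

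Among 14 small heat shock protein genes 0 were thresholded, 3 were at an IDR of 0.05 or less and the median was 44.7. The divergent pair hsp-16.2 and hsp-16.41 shared a summit between them with a signal of 84.47, with 35.82 in replicate 1 and 41.86 in replicate 2 and an IDR of 0.0285. The third of these genes was sip-1, named here after its values were seen, with a signal of 80.63 at an IDR of 0.0296. The duplicated genes hsp-16.1 and hsp-16.11, and the duplicated genes hsp-16.48 and hsp-16.49, had the same strongest entry, with a signal of 40.78, and are also named after their values were seen. Their values are uncertain, since how reads that fit several copies were treated is not given in the sources. Of the 4 matched regulators of heat shock factor, 0 were thresholded and the median was 40.8 over 3 with a ranked summit. The inhibitor gene hsb-1 had 85.6 at an IDR of 0.211 with the summit in let-99. The strongest entry of hsf-1 itself had 40.76 at an IDR of 0.506, with the summit in an intron of R06C1.6.

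**Figure D4:**
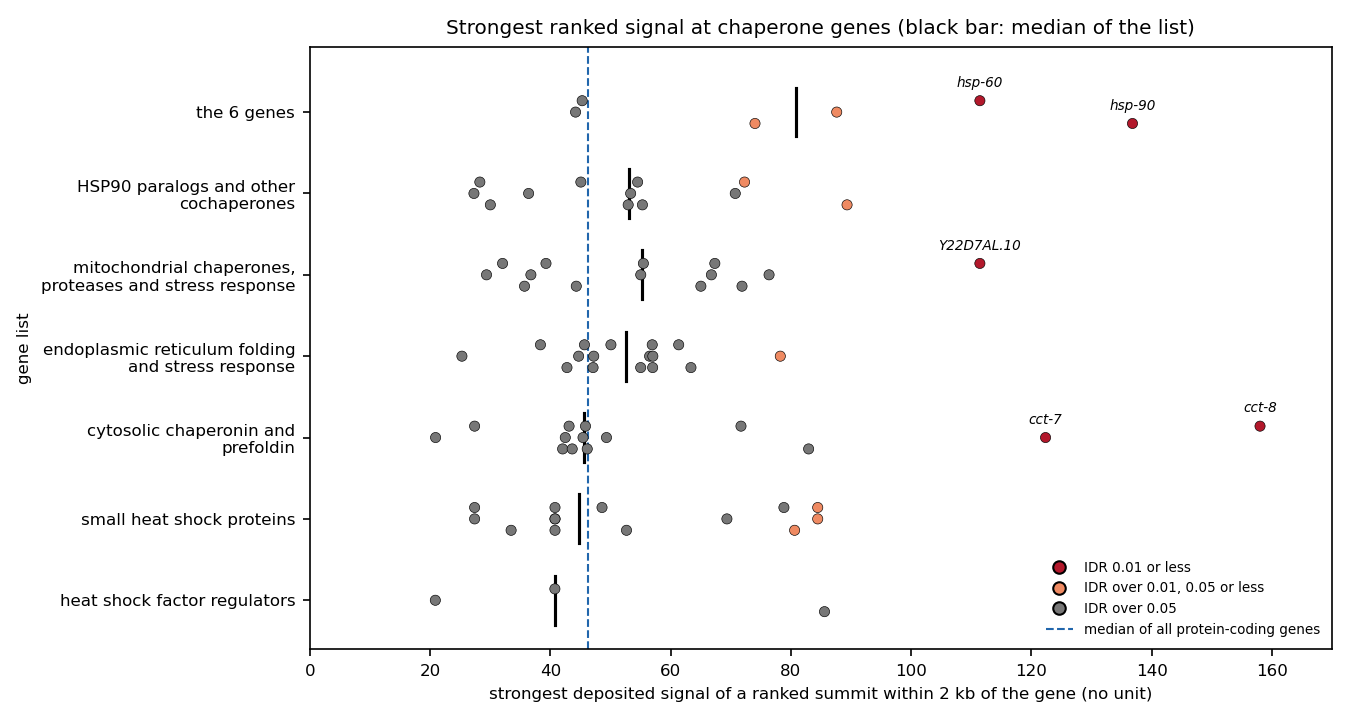
Strongest deposited signal of a ranked summit within 2 kb (horizontal axis, no unit), 1 point per gene, for the 6 genes and for 6 lists of other chaperone genes (rows), with colours for the IDR class, a black bar at each list's median and a dashed line at the median of all protein-coding genes, 46.2. The points at IDR 0.01 or less are hsp-90, hsp-60, Y22D7AL.10 (the hsp-60 peak again), cct-7 and cct-8.

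The peaks most like the hsp-90 and hsp-60 peaks in their replicate signals were found among 97 genes with a thresholded summit nearest to their own start and within 1 kb of it. Likeness was the Euclidean distance between log2 signals over 2 replicates. Nearest to hsp-90 were acbp-6 (distance 0.15), with 75.6 in replicate 1 and 54.75 in replicate 2, K10D2.5 (0.23) and lrpr-1 (0.25). Nearest to hsp-60 were pinn-1 (0.03), with 46.63 in replicate 1 and 54.13 in replicate 2, Y39E4B.6 (0.04) and rsy-1 (0.09). With 2 values per peak, these distances order the peaks by height and by the balance of the replicates and by nothing else.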

How the data were processed

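Peak lists from anti-GFP ChIP-seq of 2 biological replicates were analysed: 8 lists, ranked and thresholded, for the replicate comparison, the pooled comparison and each replicate. Per the labels and the notes deposited with the files, peaks are on ce11, whose chromosomes match WBcel235, and were compared by IDR. Which aligner and peak caller made them is not given in the sources used here. The control experiment that the labels name was not analysed here. The signal is the authors' deposited value per peak, whose normalization is not stated, so depth per sample is unknown and no interval was computed. IDR and q-values were deposited by the authors as −log10 values and converted here. The other deposited columns used are interval ends and summit offsets, and the deposited score was not used. In each list most intervals had a fixed width, 540 bp in the replicate-compared and pooled lists, 564 bp for replicate 1 and 524 bp for replicate 2.

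The first paired input had the interval of an entry of replicate 1's own ranked list in 53.9% of entries and of replicate 2's in 0, and the second of replicate 2's in 44.9% and of replicate 1's in 0. The signals were equal within 1e-05 in all 46958 and 39131 matches. An untraced interval was taken to come from the same replicate.

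Summits were placed in windows of 2 kb around gene models of Ensembl release 115. Thresholded entries overlapping by 1 bp or more were merged. The percentile is the share of genes with a lower strongest signal in the same window. Values were computed with Python 3.11.15, pandas 2.3.3 and numpy 2.4.6 and drawn with matplotlib 3.10.9, and the window assignment was tested on simulated data. The members and gene lists were chosen with earlier results of these data known. Named genes are the 6 members, list genes with a thresholded summit and the 2 highest otherwise in each list, the gene with the start nearest to each thresholded summit, and the 3 genes most like each thresholded member. Genes that hold or adjoin another described summit, and 5 small heat shock protein genes, are named outside this rule, after their values were seen. Other peak lists, IDR and q-value thresholds, windows, overlap rules and gene sets were tried.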

Additional observations from a re-analysis of the deposited data

How the results depend on the processing

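The count of genes with a thresholded summit, and equally that of thresholded peaks at them, was 2. It was 1 in the pooled list, at an IDR of 0.001, in a 500 bp window and with the q-value held to 0.05, 4 at an IDR of 0.05, and 0 where the nearest start had to be that of the gene. It was 2 in windows of 1 kb and 5 kb and by interval overlap. The count of peaks was also 2 without merging. Leaving out a replicate, by taking the other's own lists, gave counts from 0 without replicate 1 to 1 without replicate 2. Percentiles then ranged from 99.3 to 99.8 for hsp-90, 26.5 to 43.9 for daf-41, 19.5 to 77.4 for cdc-37, 56.4 to 99.2 for sti-1, 84.5 to 90 for enpl-1 and 94.1 to 99.2 for hsp-60. A 500 bp window gave 61.1 for daf-41, 83.2 for enpl-1 and 64.5 for hsp-60, and it leaves out the strongest summits of cdc-37, enpl-1 and hsp-60. A 5 kb window gave 28.0 for daf-41 and 89.2 for enpl-1. The other changes in percentile were smaller than 1 SD between the replicates, and in the pooled ranked list or among genes of like length every percentile of the 6 genes was within that SD. The cause of the other changes was not tested. No paired analysis was possible because there was 1 group. The 2 replicates and the unknown depth limit the precision.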
